A study of Mus musculus with 18 samples.

Results

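The genes described here are 9 transcription factors of the endocrine lineage, *Neurog3*, *Neurod1*, *Pax4*, *Pax6*, *Isl1*, *Nkx2-2*, *Insm1*, *Rfx6* and *Hhex*, out of 31201 gene names measured. They were chosen by name, and their transcripts were followed through every cell cluster of mouse stomach in 2 single-cell datasets. All mice were male wild-type C57BL/6J, 10 weeks old, with no treatment and no transgene. Dataset 1 held 491 cells of a preparation of the corpus and the antrum in 15 clusters, and dataset 2 held 3993 cells of the corpus in 20 clusters. Each dataset came from 2 pools of 3 mice, called pools 1 and 2 in dataset 1 and pools K and T in dataset 2, and the pool was the replicate. By the methods, the 2 pools of a dataset were prepared by different operators and sorted into different plates. A difference between pools can thus not be assigned to mice, operator or plates. The mice of a pool cannot be told apart, and corpus and antrum cells of dataset 1 were sorted together. Dead cells were removed by a dye (ToPro3 in the sample labels, propidium iodide in the methods for dataset 1), and dataset 2 was also gated on Hoechst33342.

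These factors act in the order in which an endocrine cell forms. *Neurog3*, a basic helix-loop-helix factor, is switched on for a short time in progenitors that leave the cell cycle to become endocrine cells. *Neurod1*, *Insm1*, *Nkx2-2*, *Pax4* and *Rfx6* are known to act with it or after it, and *Pax6*, *Isl1* and *Hhex* are known for their part in single hormone cell types, *Hhex* for instance in the somatostatin cells of the pancreas. In the corpus the main endocrine cells are the histamine-producing enterochromaffin-like (ECL) cells, the somatostatin-producing D cells and the ghrelin-producing X/A cells, while gastrin cells lie in the antrum. The isthmus of the gastric gland holds the dividing progenitors of the epithelium.

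Transcripts were counted by Quartz-Seq2, in which cells are sorted singly into 384-well plates and each transcript is counted once by its unique molecular identifier (UMI). The plates held 3054370 to 5346035 UMIs in dataset 1 and 10540256 to 12850942 in dataset 2, and the median cell had 38757 and 31020 UMIs. A level is given in UPM, the UMIs of a gene per 1000000 UMIs of all cells of a cluster in a pool, and means are over pools (± SD, n = 2 pools). Of cells, the share with at least 1 UMI is given, with an exact Clopper-Pearson 95% interval where it stands alone, and for a count of 0 the limit given is that of 3 counts. Wells of different plates shared well barcodes by the plate design (195 of the 491 cells of dataset 1 and 3609 of the 3993 of dataset 2 shared one with a cell listed earlier), so cells were told apart by plate and well. Only singlets were sorted, and doublets were not called. The UMIs of each cluster were summed per pool and tested with edgeR's quasi-likelihood method, with Benjamini-Hochberg adjustment over all genes tested (15295 in dataset 2, 11965 in dataset 1). Since the authors had clustered the cells on these very counts, a p-value between clusters carries the clustering with it.

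The endocrine clusters of dataset 2 were checked against marker genes that do not include the 9 factors. In cluster 14 (53 cells), *Hdc*, the histamine-forming enzyme, was at 5599 UPM, with *Slc18a2* and *Ddc* in every cell, and it is called ECL-like. *Slc18a2* was at 3892 UPM there against 29.1 in cluster 16 and 275 in cluster 17. *Ddc* hardly set the clusters apart, at 670, 631 and 474 UPM in clusters 14, 16 and 17. Cluster 16 (31 cells) was led by somatostatin (*Sst*, 175579 UPM) with *Pcsk2* in 27 of 31 cells and *Iapp* in 5, and is called D-like. Cluster 17 (29 cells) was led by ghrelin (*Ghrl*, 199005 UPM) with *Mboat4* and *Pcsk1* in every cell, and is called X/A-like. These genes were also found in the ECL-like cluster, *Ghrl* at 22040 UPM, *Mboat4* at 398 (320 in cluster 17) and *Pcsk1* at 881 (681), so *Ghrl* alone of the 3 was higher in cluster 17. Cluster 14 of dataset 1, with 12 cells, was taken as endocrine beside cluster 9 at the start, but its marker genes did not bear this out. Its leading genes included the mast cell genes *Mcpt1*, *Tpsb2* and *Cpa3*, the granzyme gene *Gzma* and the tuft cell gene *Trpm5*. *Trpm5* and the tuft cell genes *Dclk1* and *Pou2f3* were each in 8 of 12 cells and the T cell gene *Cd3e* in 2, and the cluster is named below by its number only.

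*Neurog3* (chromosome 10, 61968862 to 61970766, GRCm39) had 0 UMIs in the 3993 cells of dataset 2, which allows a share of up to 0.0751% of cells with a UMI. In dataset 1 it had 3 UMIs. Of these, 2 lay in 1 somatostatin cell of cluster 9 in pool 1, and the third in 1 antrum mature pit cell. *Pax4* (chromosome 6, 28442333 to 28449352), which acts early in the endocrine lineage, had 2 UMIs in dataset 2, in 1 D-like and 1 neck cell, and 1 UMI in dataset 1, in an isthmus-like cell. Both factors were thus at or near 0 in both datasets and were left out of all tests by the filter on low counts. The other 7 factors passed it in both datasets.

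Of those 7, *Neurod1*, *Nkx2-2*, *Pax6*, *Insm1* and *Rfx6* were concentrated in the 113 endocrine cells of dataset 2. Their share of UMIs in clusters 14, 16 and 17 was 95.01% for *Neurod1*, 96.7% for *Nkx2-2*, 95.3% for *Pax6*, 93.5% for *Insm1* and 93.3% for *Rfx6*. *Hhex* and *Isl1* were divided differently, with 51.9% and 7.62% of their UMIs in those clusters. The share of cells with a UMI of each factor in each cluster is plotted below.

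**Figure D1:**
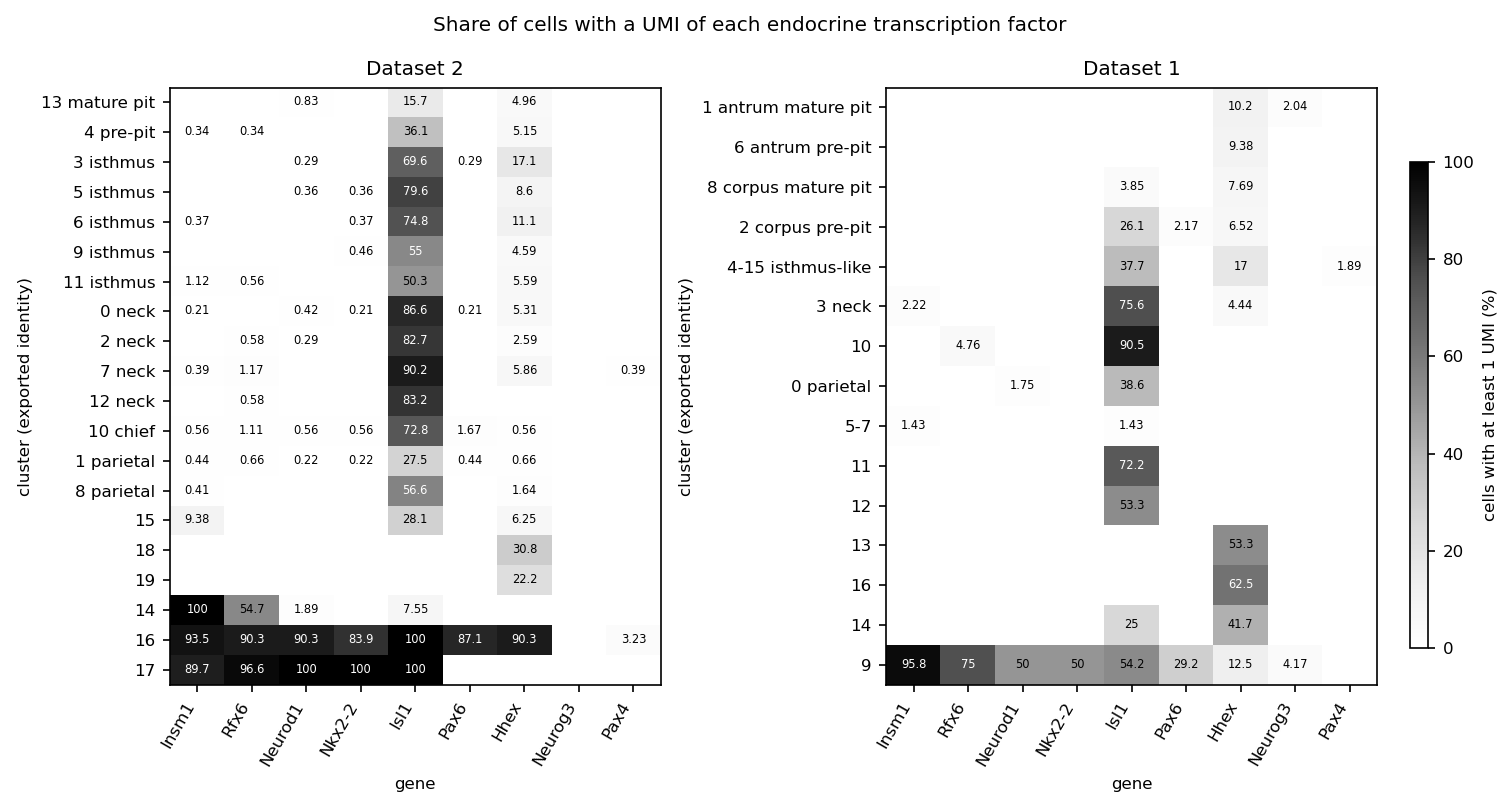
Percent of cells with at least 1 UMI (shade and number) of each of the 9 factors (columns) in each cluster (rows), with dataset 2 and dataset 1 in separate panels, where an empty square is 0. The darkest squares of *Neurod1*, *Pax6*, *Nkx2-2*, *Insm1* and *Rfx6* lie in clusters 14, 16 and 17 of dataset 2 and cluster 9 of dataset 1, while those of *Isl1* run through most epithelial clusters.

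The 3 endocrine clusters were set against the 14 epithelial clusters of dataset 2 by adding the UMIs of each side in each pool. All 7 tested factors were higher in the endocrine cells, where 29.8% of the 8128 genes tested were. The 6 factors other than *Isl1* were too low in the epithelial cells to pass the filter on low counts there. They passed it through endocrine cells, so their direction was fixed by the filter. The count of higher factors is therefore no test, and the sizes below are a description. *Neurod1* had 221 and 198 UMIs in the endocrine cells of pools K and T against 19 and 3 in all epithelial cells, a log2 fold change of 10.1 (SE 0.328, adjusted p = 2.83e-11). For *Insm1*, with 8 and 25 UMIs in the epithelial cells, it was 10.2 (SE 0.322, adjusted p = 4.97e-12). The differences of *Nkx2-2*, *Pax6* and *Rfx6* were 10.6, 10.02 and 9.62 on the log2 scale. *Hhex* was higher by 6.09 (SE 0.214) and *Isl1* by 2.31 (SE 0.139, adjusted p = 4.72e-09), so these 2 were the least confined to endocrine cells. When the fitted levels of the clusters were averaged instead, 4 of the 7 were called, where 22.6% of all genes were called higher. That average has no finite value for the 6 factors other than *Isl1*, since each of them had 0 UMIs in both pools of at least 1 averaged cluster. For *Isl1* the averaged difference was 1.23 (SE 0.301, adjusted p = 0.00073).

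*Insm1* (chromosome 2, 146063841 to 146066940), a zinc finger repressor needed for endocrine differentiation, was the factor found most widely in the ECL-like cells. D-like and X/A-like cells carried it too, as given below. It was found in 53 of 53 ECL-like cells, at 539 UPM in pool K and 444 in pool T, with 1 to 39 UMIs a cell and a median of 7. *Rfx6* (chromosome 10, 51553852 to 51606528), a winged-helix factor of endocrine development, was at 35.5 and 56.5 UPM and in 54.7% of the cells. The remaining factors were nearly absent. *Isl1* had 4 and 3 UMIs (8.87 and 5.30 UPM), *Neurod1* had 1 UMI, and *Nkx2-2*, *Pax6* and *Hhex* had 0 UMIs in 53 cells, which allows up to 5.66% of cells with a UMI. In 6 ECL-like cells *Ghrl* had more UMIs than *Chga*, from 833 to 2173 UMIs a cell. These 6 carried *Insm1* like the rest (1 to 31 UMIs) and 0 UMIs of *Isl1* and *Nkx2-2*, which the ghrelin-led X/A-like cells held in every cell.

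The D-like cells held all 7 factors. *Hhex* (chromosome 19, 37423258 to 37429179), a homeobox factor, was at 809 and 583 UPM in pools K and T and was found in 28 of 31 cells. *Pax6* (chromosome 2, 105499234 to 105530952), a paired-domain and homeobox factor, was at 493 and 248 UPM, in 27 of 31 cells. Neither gene had a UMI in the ECL-like or the X/A-like cluster, so the D-like cells lay above both in each pool. *Isl1* (chromosome 13, 116434817 to 116446235), a LIM homeobox factor, was at 1068 and 882 UPM and in every D-like cell. *Neurod1* (chromosome 2, 79282865 to 79287294), a basic helix-loop-helix factor, was at 581 and 500 UPM. *Nkx2-2* (chromosome 2, 147019466 to 147036163), a homeobox factor, was at 196 and 189 UPM. In pool T, 22 of its 48 UMIs lay in 1 cell with 0 UMIs of *Sst*. The 29 cells in which *Sst* was the most abundant of *Sst*, *Gast*, *Ghrl* and *Chga* were at 151 UPM over both pools. *Insm1* was at 265 and 295 and *Rfx6* at 265 and 221 UPM, each in at least 90.3% of the cells.

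In the X/A-like cells, *Neurod1*, *Isl1* and *Nkx2-2* were each found in 29 of 29 cells. *Neurod1* was at 432 and 252 UPM in pools K and T, *Isl1* at 402 and 301 and *Nkx2-2* at 338 and 305. *Insm1* was at 132 and 131 UPM, in 89.7% of the cells, and *Rfx6* at 165.4 and 202, in 96.6%. The X/A-like cells thus differed from the D-like cells by the lack of *Pax6* and *Hhex* and shared the other 5 factors with them.

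**Figure D2:**
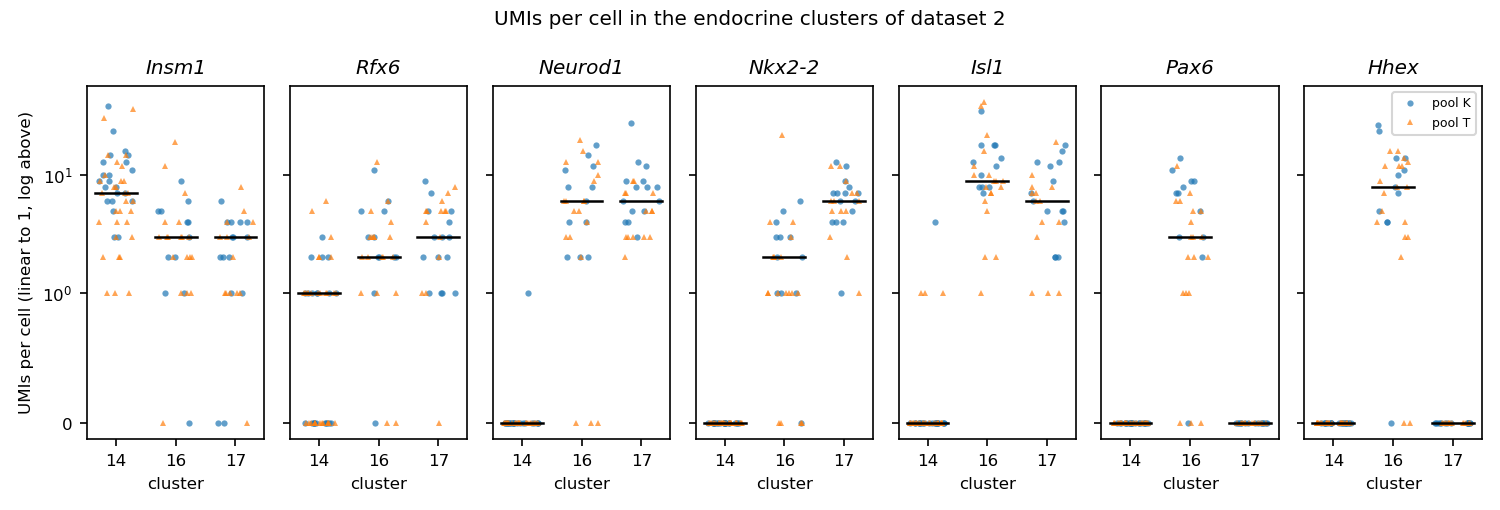
UMIs per cell of the 7 factors in the ECL-like (14), D-like (16) and X/A-like (17) clusters of dataset 2; each point is 1 cell, the 2 colours are pools K and T, the bar is the median of a cluster, and the axis is linear up to 1 UMI and logarithmic above. *Insm1* lies above 0 in all 53 ECL-like cells, and *Pax6* and *Hhex* lie above 0 only in D-like cells among these 3 clusters.

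The combinations in single cells followed the clusters. Of the 31 D-like cells, 18 held all 7 factors, and the median cell held 7 of the 9. Of the 29 X/A-like cells, 25 held *Neurod1*, *Nkx2-2*, *Isl1*, *Insm1* and *Rfx6* together and no other factor, and the median was 5. The median ECL-like cell held 2, with *Insm1* and *Rfx6* alone in 27 cells and *Insm1* alone in 21. In the D-like cluster, 2 cells of pool T had at most 1 *Sst* UMI and 0 of *Hdc*, with *Chga* at 61 and 112 UMIs. Both had 0 UMIs of *Pax6* and *Hhex*, and 1 of them had 39 UMIs of *Isl1* and 22 of *Nkx2-2*, the highest *Nkx2-2* count of the cluster. A cell can lack a UMI of a factor through its depth, since the median cell had 17920 UMIs in cluster 14, 13453 in cluster 16 and 19553 in cluster 17.

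The ECL-like cluster was tested against the average of the D-like and X/A-like clusters, a comparison in which 12.3% of all genes were called. Of the 7 factors, 4 were lower (4.3% of all genes) and 1 was higher (8.01%). *Isl1* was lower by a log2 fold change of -6.47 (SE 0.317, adjusted p = 9.4e-18) and *Neurod1*, with its 1 UMI, by -8.78 (SE 0.718, adjusted p = 5.29e-10). *Rfx6* was lower by -2.25 (SE 0.418, adjusted p = 0.000361). *Insm1* was higher by 1.26 (SE 0.265, adjusted p = 0.0012), and without pool K of the ECL-like cells its adjusted p was 0.0539. For genes with 0 UMIs on one side the fold is a lower bound, set against 3 UMIs over that cluster. *Nkx2-2* was at least 65.2-fold higher in the D-like and at least 109-fold higher in the X/A-like cluster than in the ECL-like cluster. The D-like value includes the 22 *Nkx2-2* UMIs of 1 cell without *Sst*. *Hhex* was at least 236-fold and *Pax6* at least 126-fold higher in the D-like than in the ECL-like cluster.

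Between the D-like and the X/A-like cluster 3 of the 7 factors were called, all higher in the D-like cells, where 1.1% of all genes were called higher and 2.86% in either direction. *Hhex* was at least 134-fold higher (adjusted p = 1.71e-12) and *Pax6* at least 71.4-fold (adjusted p = 1.76e-05). *Isl1* was higher by 1.31 on the log2 scale (SE 0.181, adjusted p = 8.21e-06). *Insm1* (0.96, SE 0.374), *Neurod1* (0.51, SE 0.357), *Rfx6* (0.24, SE 0.428) and *Nkx2-2* (-0.89, SE 0.392) did not pass, with adjusted p from 0.225 for *Insm1* to 0.911 for *Rfx6*. DESeq2 called *Insm1* and *Nkx2-2* (adjusted p = 0.00609 and 0.00675) and did not call *Pax6* (0.811). A difference that did not pass does not show that the levels were equal, since the SE of these 4 genes lay between 0.357 and 0.428. The *Nkx2-2* UMIs of the D-like cluster include the 22 of 1 cell without *Sst*. When each cluster was set against the other 2 endocrine clusters with their UMIs added, 4 of 7 factors were called for the D-like cluster (6.25% of all genes) and 5 of 7 for the X/A-like cluster (7.33% of all genes). With the 2 clusters averaged it was 6 (4.15% of all genes) and 4 (4.83%), but that average has no finite value for *Nkx2-2*, *Pax6* and *Hhex*. *Rfx6* in the D-like cluster passed when averaged (1.31, SE 0.378, adjusted p = 0.0455) and did not pass with UMIs added (0.0852) or when pool K (0.328) or pool T (0.273) of that cluster was left out. *Isl1* in the X/A-like cluster fell from 2.26 to 0.48 (adjusted p = 0.121) when the UMIs of the other 2 clusters were added instead of averaged, because the average counts the near absence in ECL-like cells as much as the high level in D-like cells.

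The regions upstream of *Hhex*, *Pax6* and *Nkx2-2* are shown because these genes separated the 3 endocrine clusters by presence against absence. Each is the part of the RefSeq window (250 bases before the start) that lies outside annotated exons, matched exactly to GRCm39 and written 5′ to 3′ on the strand of the gene. Capitals mark CATCTG, which with its reverse complement CAGATG is a form of the E-box. The E-box is the kind of site that basic helix-loop-helix factors such as *Neurod1* and *Neurog3* are known to bind. Other forms of the E-box were neither marked nor counted.
*Hhex*, chr19:37423039-37423257, plus strand: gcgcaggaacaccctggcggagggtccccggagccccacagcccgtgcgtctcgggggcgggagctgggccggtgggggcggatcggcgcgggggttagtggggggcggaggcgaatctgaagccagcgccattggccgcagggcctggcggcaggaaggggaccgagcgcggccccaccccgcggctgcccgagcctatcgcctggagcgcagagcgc
*Pax6*, chr2:105498991-105499233, plus strand: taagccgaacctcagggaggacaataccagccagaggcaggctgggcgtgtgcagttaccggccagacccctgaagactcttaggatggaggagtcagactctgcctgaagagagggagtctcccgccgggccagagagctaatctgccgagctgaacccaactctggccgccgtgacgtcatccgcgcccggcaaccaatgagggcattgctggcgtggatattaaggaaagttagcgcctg
*Nkx2-2*, chr2:147028376-147028572, minus strand, inside a longer annotated *Nkx2-2* transcript: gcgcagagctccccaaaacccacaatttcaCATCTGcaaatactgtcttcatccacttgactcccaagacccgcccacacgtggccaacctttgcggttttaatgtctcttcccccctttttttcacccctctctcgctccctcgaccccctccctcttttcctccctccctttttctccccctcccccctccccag
Of the 9 factors, 7 had an entry in the RefSeq table (built on GRCm38.p6), with 8 windows in all, and *Insm1* and *Pax4* had none. The motif occurred in 1 of these 8 windows, that of *Nkx2-2*, and in 14.4% of the 32851 windows of all genes. The *Hhex* window had a GC content of 76.0% and 32 CpG, against medians of 52.4% and 6 over all windows.

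Dataset 1 came from other mice and included the antrum, and its cluster 9 (24 cells, 7 of pool 1 and 17 of pool 2) held several hormone types. The preparation also held cells with small intestine genes. In its cluster 5-7, *Fabp1* (6548 UPM) and *Alpi* (7630 UPM) were in each of 70 cells. Whether all cells of cluster 9 were gastric was not tested. Cells were divided by the most abundant of *Sst*, *Gast*, *Ghrl* and *Chga*, none of which is one of the 9 factors. The 3 *Sst* cells had *Hhex* (9, 15 and 35 UMIs) and *Pax6* (8, 9 and 10 UMIs), and so repeated the pair seen in D-like cells of dataset 2. The 5 *Gast* cells, a type absent from the corpus clusters of dataset 2, held *Neurod1*, *Isl1*, *Nkx2-2*, *Insm1* and *Rfx6* in 5 of 5. *Pax6* was found in 4 of them, with up to 40 UMIs, and *Hhex* in none. The 5 *Ghrl* cells held *Isl1* and *Rfx6* in 5 of 5 and *Neurod1*, *Nkx2-2* and *Insm1* in 4, with 0 UMIs of *Pax6* and *Hhex*. The 11 *Chga* cells all carried *Hdc* and all came from pool 2. They held *Insm1* in 11 (2 to 28 UMIs) and *Rfx6* in 6, and 0 UMIs of the other 7 factors. *Insm1* was not highest in these cells. It was at 525 UPM in the *Chga*, 675 in the *Sst*, 766 in the *Gast* and 250 in the *Ghrl* cells, with both pools together.

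**Figure D3:**
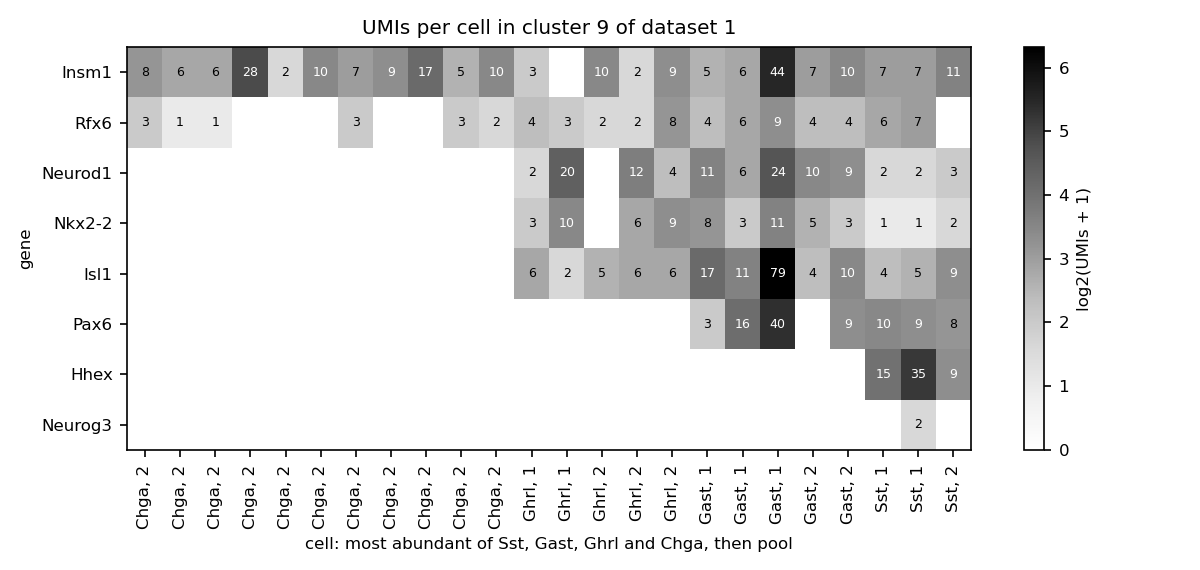
UMIs of each factor except *Pax4*, which had 0 UMIs there (rows), in the 24 cells of cluster 9 of dataset 1 (columns), ordered by the most abundant of *Chga*, *Ghrl*, *Gast* and *Sst* and then by pool; the shade is log2(UMIs + 1) and the number is the UMI count. *Hhex* is above 0 in the 3 *Sst* cells alone, *Pax6* in those and in 4 of the 5 *Gast* cells, and *Insm1* in 23 of 24 cells.

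The hormone types of cluster 9 were unevenly divided between pools 1 and 2, and its factor levels differed between the pools. *Isl1* was at 1012 UPM in pool 1 and 129 in pool 2, *Pax6* at 637 and 54.8 and *Hhex* at 408 and 29.0. *Insm1*, which all 4 hormone types carried, was at 588 and 506. In pool 1, 1 *Gast* cell with 29350 UMIs held 79 of the 124 *Isl1* UMIs, 40 of the 78 of *Pax6* and 44 of the 72 of *Insm1*. What made the pools differ was not tested. Against the average of the 7 epithelial clusters of dataset 1, all 7 tested factors were called higher in cluster 9 (20.7% of all genes), but each had 0 UMIs in both pools of at least 1 of those clusters, so the average has no finite value and no size is given from it. With the UMIs of each side added, 5 of the 7 passed the filter on low counts and all 5 were higher, where 18.7% of genes were called higher. None of these 5 was high enough in the epithelial cells to pass the filter there. Their direction was thus largely set by the filter, and the count is no test. The log2 fold changes were 11.3 for *Insm1* (SE 0.485, adjusted p = 8.28e-10), 10.5 for *Neurod1* (SE 0.935), 10.5 for *Rfx6* (SE 0.925), 6.60 for *Hhex* (SE 0.877) and 4.58 for *Isl1* (SE 0.586).

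Cluster 14 of dataset 1 held 0 UMIs of *Neurog3*, *Neurod1*, *Pax4*, *Pax6*, *Nkx2-2*, *Insm1* and *Rfx6* in its 12 cells, 3 UMIs of *Isl1* and 7 of *Hhex*. At 120118 UMIs in all and 6635 in the median cell it was shallow, and 3 UMIs correspond to 24.98 UPM. Cluster 9 was higher than cluster 14 in 6 of the 7 tested factors, where 4.93% of all genes were called higher. The bound was at least 21.9-fold for *Insm1* and at least 7.66-fold for *Nkx2-2*, and *Hhex* did not pass (log2 fold change 1.91, SE 0.966, adjusted p = 0.239). Together, clusters 9 and 14 gave 2 called factors of 7 against the epithelial clusters, where 30% of all genes were called, and this average too has no finite value for any of the 7. With UMIs added it was 6 of 6, where 21.1% of genes were called higher. These 6 too were too low in the epithelial cells to pass the filter on low counts there, so this count is no test.

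*Isl1* differed from the other factors in its spread over the epithelium of dataset 2. By cell type its mean level was 975 ± 131 UPM in D-like cells, 351 ± 71.0 in X/A-like cells, 132 ± 17.1 in neck cells (144 in pool K and 120 in pool T), 49.1 ± 2.96 in chief cells and 47.6 ± 3.32 in isthmus cells. Below these were tuft-like cells of cluster 15 (29.5 ± 5.27), pre-pit cells (18.5 ± 6.63), parietal cells (14.6 ± 1.08), ECL-like cells (7.09 ± 2.52) and mature pit cells (6.50 ± 1.90). In this order chief and isthmus cells overlapped, as did pre-pit and parietal cells, and ECL-like and mature pit cells. *Isl1* had 0 UMIs in cluster 18, led by *H2-Aa* and *Lyz2* (13 cells), and in the endothelial-like cluster 19 (9 cells).

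**Figure D4:**
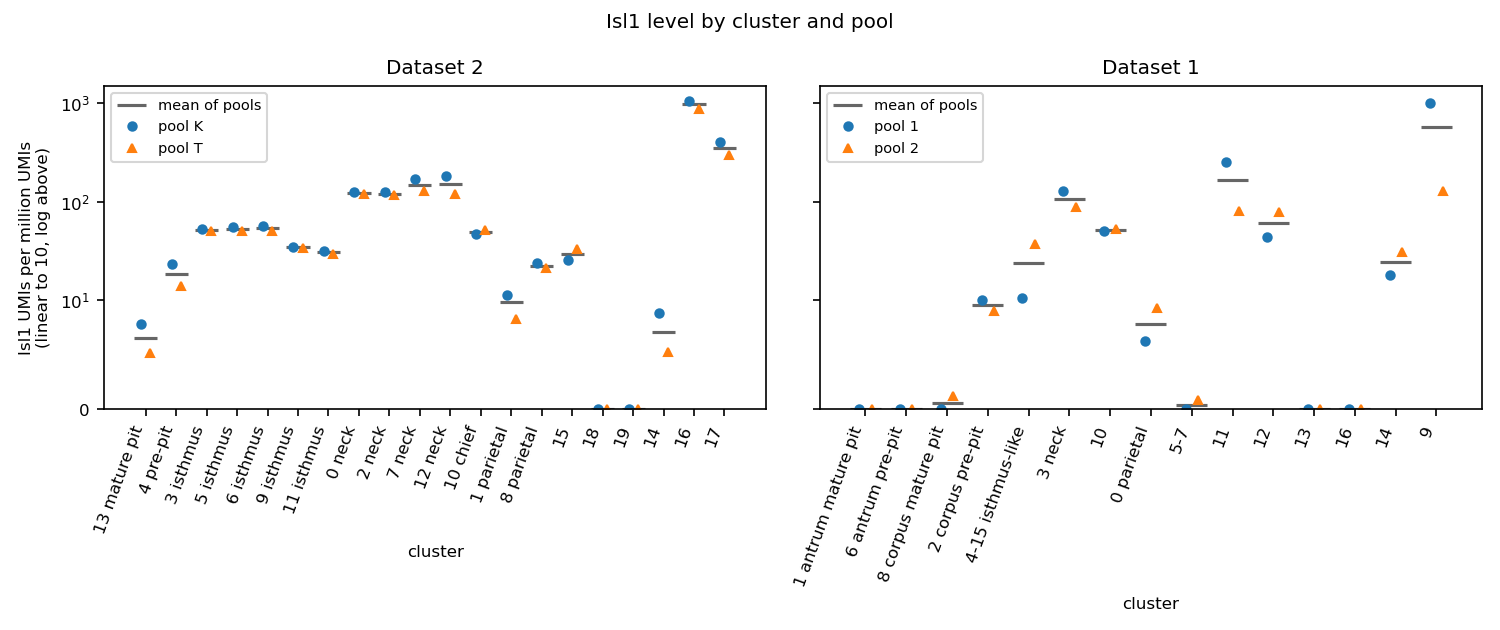
*Isl1* level in UPM (axis linear up to 10 and logarithmic above) in each cluster of both datasets; each point is 1 pool and the line is the mean of the 2 pools. In dataset 2 the neck clusters 0, 2, 7 and 12 lie between 116 and 181, above the other epithelial clusters and below the endocrine clusters 16 and 17.

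The neck clusters were above the pit clusters 13 and 4 by 3.47 on the log2 scale for *Isl1* (SE 0.136, adjusted p = 7.83e-22), in a comparison in which 50.1% of all genes were called, so the call itself is common and the size is what is given. Among the neck clusters, cluster 7 (170.9 and 128 UPM in pools K and T) lay above cluster 0 (125 and 119) and cluster 2 (124 and 116) without overlap, while cluster 12 (181 and 121) overlapped with the other 3. Of neck cells 85.8% had an *Isl1* UMI, against 37.6% of parietal and 15.7% of mature pit cells. After every cell was thinned to 10000 UMIs, which left out 9 neck cells and 1 parietal cell, these shares were 65.3% in neck and 11.6% in parietal cells. ECL-like cells were lower in *Isl1* than the average epithelial cluster, by a log2 fold change of -3.09 (SE 0.429, adjusted p = 1.72e-07, 46.4% of all genes called). With UMIs added, where 25.2% of genes were called higher, they were higher in *Insm1* by 10.6 (SE 0.322) and in *Rfx6* by 8.06 (SE 0.512). Both genes passed the filter on low counts through endocrine clusters only, so the direction was not open.

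In dataset 1 *Isl1* was again high in neck cells, at 127 and 87.6 UPM in pools 1 and 2. Cluster 10, which carried the chief cell genes *Cblif* and *Pgc*, had 49.96 and 53.2. The 53 isthmus-like cells had 10.5 and 37.2, so their pools lay far apart. Corpus pre-pit cells had 10.03 and 9.03, corpus mature pit cells 1 UMI, and the antrum pit clusters 1 and 6 (49 and 32 cells) 0 UMIs in both pools. *Isl1* had 14 and 9 UMIs in the corpus pit clusters (pools 1 and 2) and 0 and 0 in the antrum ones, a difference that did not pass the test (adjusted p = 0.164 with UMIs added, where 6.02% of all genes were called). Outside the epithelium, *Isl1* was found in cluster 11, led by the smooth muscle genes *Tagln* and *Myh11* (254 and 81.0 UPM), and in the stromal-like cluster 12 (44.2 and 78.1).

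The isthmus of dataset 2 comprised clusters 3, 5, 6, 9 and 11 with 1285 cells. *Isl1* was found in 67.7% of them (65.1% to 70.3%) and in 34.4% after thinning to 10000 UMIs, against 63 of 180 chief cells and 11.6% of parietal cells. Clusters 3, 5 and 6 lay between 49.97 and 57.2 UPM. Cluster 9 (34.7 in pool K and 33.9 in pool T) and cluster 11 (31.7 and 29.4) lay below them in both pools. Cluster 11 was lower than the average of the other 4 by a log2 fold change of -0.66 (SE 0.153, adjusted p = 0.00139), in a comparison in which 22.3% of all genes were called, and without pool T of cluster 11 its adjusted p was 0.0724. Against the average of all other epithelial clusters the isthmus differed in *Isl1* by -0.24 (SE 0.074, adjusted p = 0.006, 57.1% of all genes called), a value that did not pass without pool T of the isthmus (adjusted p = 0.141).

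Isthmus cells carry the mucins of the pit (*Muc5ac*) or the neck (*Muc6*), and *Isl1* followed this division. Cells were classed by whether either mucin exceeded the level that 95% of parietal cells stayed under. *Isl1* was at 88.1 and 71.8 UPM in pools K and T in the 423 *Muc6*-only cells and at 29.9 and 26.8 in the 580 *Muc5ac*-only cells, and the 2 classes did not overlap. The 215 cells with both mucins lay between them (52.3 and 50.8), and the 67 with neither were at 34.8 and 48.5. The difference between *Muc6*-only and *Muc5ac*-only cells was 1.34 on the log2 scale for *Isl1* (SE 0.122, adjusted p = 1.64e-05, 30.7% of all genes called). For *Hhex* it was -0.21 (adjusted p = 0.616).

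*Hhex* was the other factor with epithelial transcripts, at far lower levels. It was at 2.79 and 3.01 UPM in the isthmus (154 UMIs), 1.72 and 1.997 in neck cells, and at most 0.454 in a pool of parietal cells. Chief cells had 1 UMI in 180 cells and the neck cluster 12 had 0 in 173. Of isthmus cells 10.3% had a *Hhex* UMI (8.67% to 12.1%), against 0.997% of parietal and 0.556% of chief cells, and after thinning the shares were 3.28%, 0.428% and 0.556%. The pit lineage lay nearer to the isthmus, with *Hhex* in 5.15% of pre-pit cells (2.82 and 1.14 UPM in pools K and T) and 4.96% of mature pit cells (1.39 and 1.38 UPM), or 1.72% and 0.855% after thinning. In pool K the pre-pit level was thus as high as that of the isthmus. With UMIs added, the isthmus was higher than the other epithelial clusters by 1.22 on the log2 scale for *Hhex* (SE 0.288, adjusted p = 0.00153, 25.3% of genes called higher).

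Within the isthmus *Hhex* was highest in cluster 3, at 5.06 and 6.23 UPM in pools K and T and in 17.1% of its 339 cells. Clusters 5, 6, 9 and 11 lay between 1.25 and 2.91, below cluster 3 in both pools. The log2 fold change of cluster 3 against their average was 1.44 (SE 0.313, adjusted p = 0.000979, 17.4% of all genes called). By the phase in the authors' annotation, *Hhex* was at 4.83 and 5.56 UPM in the 489 isthmus cells called S, 1.77 and 2.46 in the 172 called G1, and 1.48 and 1.69 in the 624 called G2/M. In S cells 16.0% had a UMI, against 6.40% in G1 and 6.89% in G2/M. *Hhex* UMIs were also found outside the epithelium, in the endothelial-like cluster 13 of dataset 1 (70.1 and 108 UPM, 8 of 15 cells) and its cluster 16, led by *Lyz2* and *C1qc* (90.9 and 59.97, 5 of 8 cells). In dataset 2, cluster 18 had 6 UMIs and cluster 19 had 3.

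**Figure D5:**
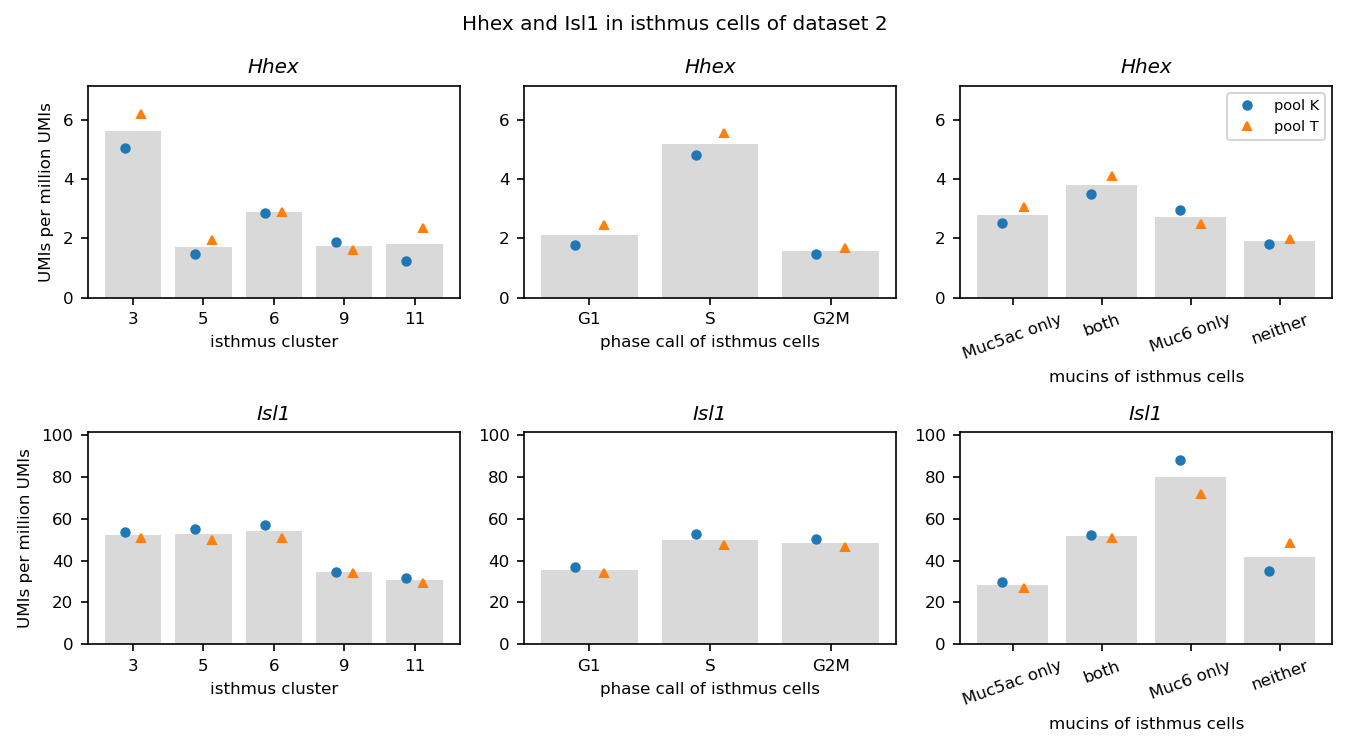
*Hhex* and *Isl1* levels in isthmus cells of dataset 2 in UPM, by cluster, by annotated cell cycle phase and by mucin class; points are pools K and T, bars are their mean and start at 0. *Hhex* is highest in cluster 3 and in S cells, and *Isl1* is highest in *Muc6*-only cells.

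The 5 factors that were concentrated in endocrine cells, together with *Neurog3* and *Pax4*, were found in few isthmus cells. Of 1285 isthmus cells, 9 (0.700%, 0.321% to 1.33%) had a UMI of any of these 7 genes, against 7 of 702 parietal (0.997%), 14 of 1247 neck (1.12%) and 7 of 180 chief cells (3.89%). The isthmus share was not above these shares, so no expression in the isthmus is read from the cells with 1 UMI. Of the 9 cells, 8 had 1 UMI, namely *Neurod1* in 2, *Nkx2-2* in 3, *Insm1* in 2 and *Pax6* in 1. The other cell, a G1 cell of cluster 11 in pool T with 52628 UMIs, had 21 UMIs of *Insm1*, 2 of *Rfx6* and 7 of *Isl1*. It also carried 274 UMIs of the granule gene *Chga* and 36 of *Chgb*, with 3 of *Ghrl* and 0 of *Mki67*. *Insm1* had 1 and 21 UMIs in pools K and T of cluster 11 against 0 and 1 in the other isthmus clusters, and it was called with UMIs added (log2 fold change 5.95, SE 0.888, adjusted p = 6.57e-06, 19.5% of all genes called). All 21 UMIs of pool T lay in this cell. Without the cell *Isl1* was the only factor called in cluster 11 against the average of the other isthmus clusters.

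Outside the endocrine clusters of dataset 2, 43 of 3880 cells had a UMI of any of these 7 genes, and 39 of them had 1 UMI. Besides the isthmus cell, 2 cells had 3 or more. A parietal cell of cluster 1 in pool K had 28 such UMIs (15 of *Neurod1*, 5 of *Rfx6*, 4 each of *Nkx2-2* and *Insm1*) and 22 of *Isl1*, with 938 UMIs of *Ghrl* and 1060 of the parietal gene *Atp4b*, so that X/A and parietal transcripts were in 1 well. A tuft-like cell of cluster 15 in pool K had 13 UMIs of *Insm1* and 0 of *Chga*. Whether any of these wells held 2 cells was not tested.

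Isthmus cells with at least 2 of the 9 factors numbered 110 (8.56%), 46 in pool K and 64 in pool T. In 102 of them the factors were *Isl1* and *Hhex* alone. Of these carriers 58.2% were called S, against 36.2% of the other isthmus cells, and their median depth was 42121 UMIs against 36928. The cells were chosen by the factors and are deeper, so only other genes are read. With edgeR's quasi-likelihood test on 2 sums per pool, 0 of 13184 genes other than the factors were called (1 gene with the factors counted, *Hhex* itself, 0.00758%), and 629 had an unadjusted p under 0.05. This test had 4 sums and 2 residual degrees of freedom, so it could miss much. DESeq2 called 2, *Pga5* and *Spp1*. With the pool as a block fewer than 2 residual degrees of freedom are left, so the spread is poorly known and the calls are weakly supported. In that fit 95 genes were called, 57 of them higher, among them *Chgb* (2 and 37 UMIs in the carriers of pools K and T) and *Chga* (20 and 305). Of the pool T UMIs, 36 of *Chgb* and 274 of *Chga* lay in the cell of cluster 11 described above. DNA replication genes were also called higher with the block, at smaller sizes. Among them were *Pcna* (log2 fold change 0.402, 931 and 1180 UMIs in the carriers of pools K and T) and *Mcm3* (0.402, 370 and 539). The mitosis genes *Ccnb2* (-0.483) and *Cenpa* (-0.444) were called lower.

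The genes whose levels over the 40 cluster sums of dataset 2 were most like each factor were named by Pearson's r of log2(UPM + 1) over 17382 genes. These sums share libraries and depth, so r is a description. *Neurod1* was closest to *Scgn* (0.991), *Nkx2-2* (0.989) and *Avpr1b* (0.988). *Nkx2-2* was closest to *Scg2* (0.997), *Scgn* (0.996) and *Avpr1b* (0.995). *Pax6* followed *Syt4* (0.967) and *Sst* (0.961), and *Hhex* followed *Nynrin* (0.824), *Sst* (0.775) and *Pax6* (0.750). *Insm1* was closest to *Atp6v0e2* (0.990), *Stx1a* (0.984) and *Sobp* (0.979), and *Rfx6* to *Nol4* (0.994), *Myt1* (0.994) and *Gprin1* (0.993). *Isl1* reached only 0.880 with *Diras2*, the lowest best value of the 7 after *Hhex*.

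Other transcription factors of endocrine cells were taken from a list of 24, of which 12 could be tested in dataset 2 with UMIs added. In the endocrine against the epithelial clusters 10 of the 12 were higher, where 29.8% of all genes were, and 0 lower, with a median log2 fold change of 4.85 against -0.05 over all genes. With clusters averaged, 13 of 16 were called higher (22.6% of all genes). *Prox1* was higher by 11.3 (117 and 140 UMIs in endocrine cells of pools K and T against 2 and 3 in all epithelial cells), *Fev* by 10.8, *St18* by 10.4 and *Myt1* by 9.82. *Foxa1*, a general factor of gut epithelium, was lower by -0.88 (SE 0.0817) with clusters averaged and differed by -0.31 with UMIs added (adjusted p = 0.0911), so its call depends on the weighting of clusters. Between the ECL-like and the other endocrine clusters 3 of 16 tested were lower, where 4.3% of all genes were (*Etv1*, -3.14, SE 0.673; *Myt1*, -2.01, SE 0.562; *Fev*, -1.52, SE 0.439), and *Foxa1* was higher (1.08, SE 0.148). Between the D-like and X/A-like clusters 0 of the 16 were called by edgeR, where 2.86% of all genes were, so 0 lies near that share. In cluster 9 of dataset 1 with UMIs added, 7 of 11 tested were higher, where 18.7% of all genes were, and 0 lower.

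Of 24 hormone and granule genes, 17 of 17 tested with UMIs added were higher in the endocrine clusters of dataset 2 (median log2 fold change 11.01), where 29.8% of all genes were. Within them the ECL-like cells were set apart from the D-like and X/A-like cells in 13 of 19 tested, 8 higher and 5 lower, where 12.3% of all genes were called. The list holds the genes by which the clusters were named above (*Hdc*, *Slc18a2*, *Ddc*, *Sst*, *Iapp*, *Pcsk2*, *Ghrl*, *Mboat4* and *Pcsk1*). Both counts therefore restate the naming in part and are no test of it. *Scg2*, a granule protein gene, had 0 UMIs in ECL-like cells against 425 and 525 in the others in pools K and T, the same division as *Nkx2-2*. *Pcsk2*, a prohormone convertase gene, was lower by -6.74 (SE 0.434), and *Chga* was higher by 2.28 (SE 0.284, adjusted p = 1.73e-07). Of the 5 Notch pathway genes of the endocrine choice, 2 were higher and 3 lower in the endocrine clusters with UMIs added, where 29.8% of all genes were higher and 32.3% lower, so the calls themselves are common. *Hes1*, a repressor that Notch signalling switches on, was lower by -3.67 (SE 0.213, adjusted p = 5.67e-10), at 17.7 and 24.5 UPM against 223 and 256. *Jag1* was lower by -2.04 (SE 0.355) and *Notch1* by -1.28 (SE 0.279), while the ligand genes *Dll1* (15 UMIs in endocrine cells) and *Dll4* (19) were each higher by 4.28 (SE 0.776 and 0.687). In cluster 9 of dataset 1 *Hes1* was also lower (-3.36, SE 0.714), and *Dll1*, with 5 UMIs there, did not pass the filter on low counts.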

How the data were processed

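Single cells of 18 plates were processed by the authors with Drop-seq tools, the FASTX-Toolkit and STAR against GRCm39 with Gencode M27, and clustered with Seurat. The deposited values were whole UMI counts per gene and cell, of cells with at least 2500 detected genes, and cluster, pool and cell cycle phase came from the deposited annotation. Total and factor counts of the exported cells were identical to those in the plate tables for 491 of 491 and 3993 of 3993 cells.

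UMIs were summed by cluster and pool and compared with edgeR 4.0.16 (TMM, filterByExpr, glmQLFit and glmQLFTest, R 4.3.3), with all clusters of a dataset in 1 fit (30 sums with 15 residual degrees of freedom in dataset 1, 40 with 20 in dataset 2), and the threshold was an adjusted p of 0.05. The fits with UMIs added merged the clusters of each side, so each had fewer sums and fewer residual degrees of freedom than this. The isthmus carriers had 4 sums with 2 residual degrees of freedom, and the mucin classes 8 with 4. The scripts were tested on simulated counts with 200 changed genes. A comparison of several clusters averaged their fitted log levels. Where an averaged cluster held 0 UMIs in both pools this has no finite value, so the same comparison with UMIs added per pool was made after the data were seen, as were the comparisons of clusters 16 and 17, of cluster 9 or 14 with the epithelium, of isthmus cluster 3, of neck and pit cells and of mucin classes where the text gives them. Other alternatives were DESeq2 1.42.0, RLE factors, no filter, the pool as a block, fewer clusters, each pool left out of the first-named clusters, and thinned or stricter cell shares. Cells of a pool came from the same animals in every cluster, so the pool pairs the sums. The differences between pools had a median correlation of 0.0872 over 91 pairs of clusters in dataset 2 and 0.0252 over 15 in dataset 1. Intervals and floors (3 UMIs) cover counting error only.

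Genes named were the 9 factors, the called genes of 3 lists (24 other transcription factors, 24 hormone and granule genes, 5 Notch genes; at most 10 examples each, by size of the fold change) and the 3 genes most like each factor among those with at least 10 UMIs in each pool. The factors and lists were chosen with earlier results of these data known. Gene coordinates are from the GENCODE annotation of GRCm39. Plate wells were left out of the comparisons where the authors did not keep the cell.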

Additional observations from a re-analysis of the deposited data

Results flagged for a closer look

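Wells whose cells the authors did not keep were in no comparison, and they held UMIs of the factors above the 3 that a count of 0 allows. In dataset 1, 1813 such wells with 3016503 UMIs in all had 4 UMIs of *Pax6* and 7 of *Isl1*. In dataset 2, 615 such wells with 1654145 UMIs in all had 22 UMIs of *Isl1*, 6 of *Hhex*, 4 of *Neurod1* and 4 of *Nkx2-2*. One well of pool T (1673 UMIs, 970 genes) held the 4 *Neurod1* UMIs, 3 of the *Nkx2-2* UMIs, both *Pax4* UMIs of these wells and the 1 *Neurog3* UMI found in dataset 2, with 4 of *Chga*, 1 of *Ghrl* and 0 of *Mki67*. What this well held was not tested.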

How the results depend on the processing

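Of 27 called results of single factors with 205 alternatives, 187 kept their direction and their side of the threshold, 18 kept the direction only, and 0 reversed. This tally leaves out factors with 0 UMIs in both pools of an averaged cluster, and alternatives that gave no value or no adjusted p. With UMIs added per pool, 7 factors instead of 4 were called in the endocrine against the epithelial clusters of dataset 2 and 6 instead of 2 in dataset 1, where restricting the fit to endocrine and epithelial clusters gave 1. DESeq2 called 2 factors instead of 6 in cluster 9 against 14 of dataset 1 and 3 instead of 7 in cluster 9 against the epithelium. In isthmus cluster 3, where 1 factor was called, DESeq2, RLE factors, no filter and the replicate block called 2, the second being *Isl1* (adjusted p = 0.0232 with the block against 0.0744). In isthmus cluster 11 leaving out the *Chga*-rich cell gave 1 factor instead of 2.

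Leaving out 1 pool of the first-named clusters gave 3 to 7 factors in cluster 9 against 14, 1 to 2 and 2 to 4 in the endocrine against the epithelial clusters of datasets 1 and 2, 1 to 2 in the isthmus against other epithelium and 0 to 2 in cluster 11. The lower *Insm1* of the X/A-like cluster against the other endocrine clusters (adjusted p = 0.0083) did not pass without pool K (0.133) or pool T (0.116). For *Isl1* in the endocrine against the epithelial clusters the adjusted p without pool K was 0.0697. In a fit where a cluster has 1 sample left, that sample is assumed to vary like the others. The cause of these changes was not tested.

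Genes other than the factors called in the isthmus carriers numbered 0, but 2 with DESeq2, 85 with no filter, 95 with the replicate block and 3 when carriers were chosen without *Hhex*. The block changed no other call of a factor. Carriers of at least 3 factors were 2 cells of pool T and were not tested.

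Shares of isthmus cells depend on depth. With at least 2 UMIs required, *Hhex* fell from 10.3% to 1.32% and *Isl1* from 67.7% to 45.4%, and after thinning to 3.28% and 34.4%. *Neurod1* (0.156%), *Nkx2-2* (0.233%) and *Pax6* (0.0778%) were at 0 with at least 2 UMIs, and *Nkx2-2*, *Pax6* and *Rfx6* (0.0778%) at 0 after thinning. Without either pool *Neurod1* lay between 0 and 0.353%, and *Pax6* and *Rfx6* each between 0 and 0.139%.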

Other observations

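The 24 hormone and granule genes, 24 other endocrine transcription factors and 5 Notch genes were also counted where the factors themselves hardly differed. In the isthmus against the other epithelial clusters, 1 granule gene was higher and 3 lower of 19 tested, 1 other transcription factor was higher and 2 lower of 16, and 1 Notch gene was higher of 5, where 57.1% of all genes were called. In isthmus cluster 11 against the other isthmus clusters, 6 granule genes, 3 other transcription factors and 2 Notch genes were higher and none of the 3 lists had a gene called lower by edgeR, where 22.3% of all genes were called. The *Chga*-rich cell of pool T enters that comparison.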
